A study of Rattus norvegicus with 2 samples.

Results

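The genes described here are 36 genes of cell adhesion: 11 integrin alpha chains, 8 integrin beta chains, 7 other adhesion receptors, 8 focal adhesion proteins and 2 caveolins. They were chosen by symbol and by no rule on their values, but with earlier results of these data known. Of the 36, 33 were represented by probe sets that carry exactly 1 gene, out of 14217 genes represented in that way. Itga2, Itga4 and Itgb8 had no such probe set and were not analysed here. The 33 genes had 60 probe sets, and the one with the highest mean log2 signal stood for its gene, with the others as a check.

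Expression was compared between 2 clones of AT6.1, an established rat prostate cancer cell line, with 1 Affymetrix array per clone and no replicates. Clone 7 carried Ndrg-1, the N-myc downstream regulated gene-1, in the expression vector pcDNA3, and clone 9 carried pcDNA3 with no insert. Both were grown in RPMI medium with 10% fetal calf serum under 0.3 mg/mL of the selection agent G418. Each group is a single clone, so clone, culture, array and insert cannot be told apart, and no p-value can be given. The study looked for genes whose expression differs with Ndrg-1 overexpression.

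The signal of Ndrg1, the gene that was transfected, differed little. Ndrg1 had signals of 1353 for the Ndrg-1 clone and 1066 in the vector clone on its first probe set, a log2 ratio of 0.34, and 154 and 182 on its second, a log2 ratio of -0.24. The Ndrg1 signal therefore did not set the clone labelled Ndrg-1 clearly apart from the other, which applies to each direction given here. The species and extent of the insert are not in the labels, so whether these probe sets detect it was not tested. Prostate epithelial markers were nearly all dim: of 10 represented, Krt8 alone exceeded the floor defined below (38.7 and 46.4), and Cdh1, Epcam, Krt5 and Krt18 lay under it in both arrays.

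Integrins are receptors made of 1 alpha and 1 beta chain that bind matrix proteins outside the cell and couple them to actin inside it. Talin binds the beta tail and activates the receptor, and paxillin, vinculin, zyxin, focal adhesion kinase and the complex of ILK with parvin assemble around it into focal adhesions. Prostate epithelium is anchored to its basement membrane by laminin-binding integrins, and altered integrin use is a known feature of prostate cancer cells.

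Signals are probe set intensities on a linear scale. Those of the Ndrg-1 clone are as deposited, and those of the vector clone are after the small rescaling given below, unless stated otherwise. The floor was set at 31.0, the median signal over both arrays, and a signal under it was raised to it. A gene at the floor in 1 array therefore has only a bound on its ratio. Ratios are given as the Ndrg-1 clone over the vector clone on the log2 scale, after the vector clone was rescaled by a log2 shift of 0.0048 to a median ratio of 0 among the brighter probe sets. A difference was counted at 2-fold. Where 2 signals are given together, that of the Ndrg-1 clone comes first. Signals of different probe sets depend on their probes and are not compared with one another.

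None of the adhesion genes reached 2-fold. Of the 33 represented, 25 exceeded the floor in 1 array or both, 22 of them in both, and 8 were under it in both. Of the 25, 0 reached 2-fold upward in the Ndrg-1 clone and 0 downward. Among all 9182 genes measured, the shares were 1.62% higher and 1.5% lower, so a count of 0 among 25 genes is close to that background. The median log2 ratio was -0.15, with 17 genes below 0 and 8 above, against a median of 0.0029 over all genes measured. The brightest 10% of all genes above the floor in both arrays also had a median of -0.15, and 8 of the adhesion genes lie in that range, namely Itgb1, Thy1, Pxn, Ilk, Vcl, Parva, Cav1 and Cav2. Of these, Thy1 (0.62) and Parva (0.04) were above 0. Removing the trend of the ratio on signal moved the adhesion median to -0.08, with 14 genes below 0 and 11 above.

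The only error available is the disagreement between probe sets of 1 gene, whose SD was 0.23 on the log2 scale over 5336 probe sets of 2296 genes. It leaves out the spread between clones, cultures and arrays. Of the 22 adhesion genes above the floor in both arrays, 5 differed by more than 2 SD (a log2 ratio of 0.46, or 1.38-fold): Thy1 was higher, and Itga3, Itga7, Itgb5 and Pxn were lower. Among the 8552 genes above the floor in both arrays, 15.3% differed by as much, 7.69% higher and 7.59% lower. At a looser threshold of 1.5-fold, 1 adhesion gene was higher (Thy1) and 3 were lower (Itga3, Itga7 and Itgb4), beside 5.54% and 5.18% of all genes measured.

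**Figure D1:**
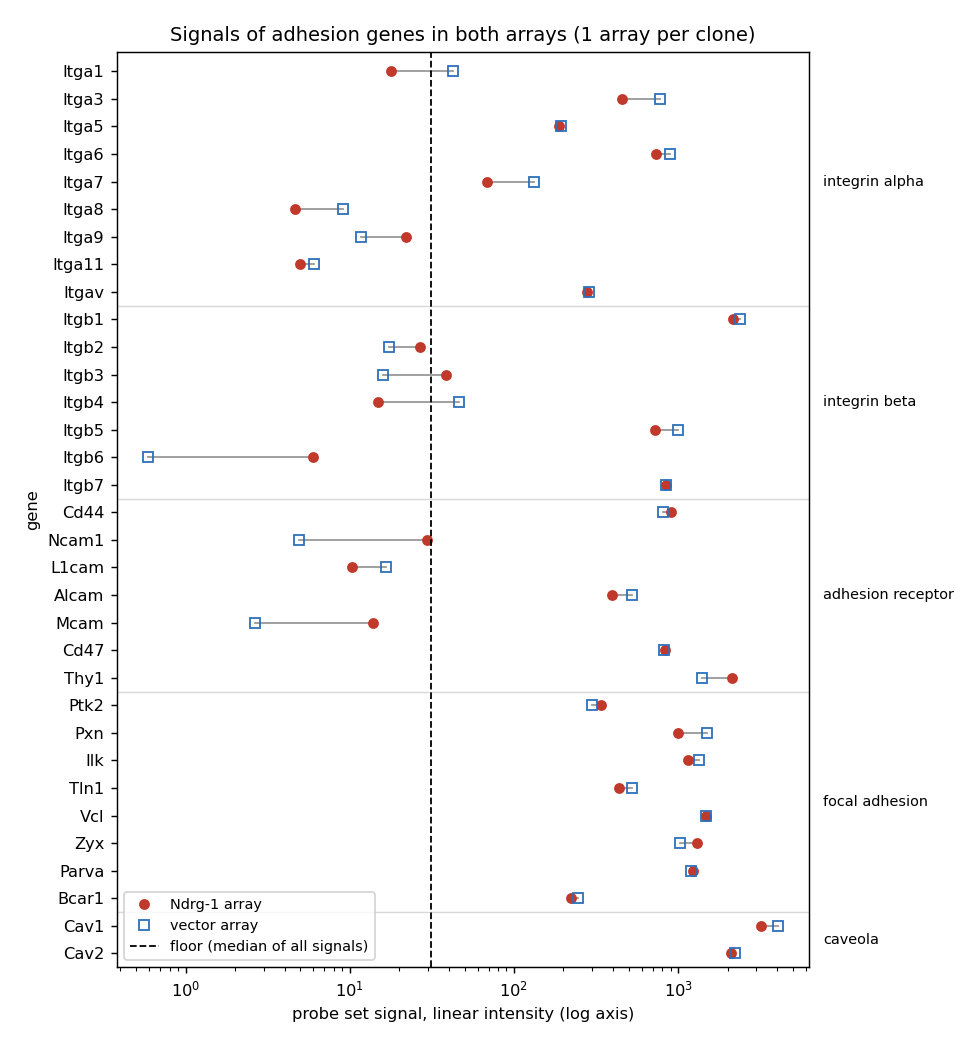
Probe set signal (linear intensity on a log axis) of each adhesion gene in the Ndrg-1 clone (filled circles) and the vector clone (open squares), grouped by role, with the floor of 31.0 as a dashed line. The focal adhesion and caveolin genes lie above the floor in both arrays, while 8 genes, among them Itga8, Itga11, Itgb2, Itgb6 and L1cam, lie under it in both.

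Integrin alpha chains were lower or level in the Ndrg-1 clone. All 6 alpha chains measured had a log2 ratio below 0 (median -0.37), as did 4557 of all 9182 genes measured. Of the 6, Itga5 (-0.04) and Itgav (-0.05) were nearly level, and Itga1 has only a bound. Scaling to the hybridisation spikes moved the median of all genes to 0.53 and put 3 of the 6 above 0. All 6 stayed below that median under both spike scalings, but these shift all genes alike and so cannot test it. The laminin-binding chains Itga3, Itga6 and Itga7 were grouped after their values were seen. They had lower ratios than Itga5 and Itgav, which bind fibronectin and other ligands carrying the RGD motif. Itga6 was inside 2 SD, and Itga1, which also binds laminin, is not in this group.

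Itga3, a laminin receptor chain of epithelial cells, had signals of 455 and 772 in the Ndrg-1 and vector clones. The Ndrg-1 clone was thus 1.70-fold lower (log2 ratio -0.76). Of all genes above the floor in both arrays, 2.53% had a lower ratio. A single probe set represents the gene, so its value has no check within the arrays.

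Itga7, a laminin receptor chain best known from muscle, stood at 68.0 and 133, and its log2 ratio of -0.97 came just short of 2-fold. Its second probe set, at 36.5 and 52.2, went the same way with -0.52, and the other lay under the floor in both arrays. The direction was shared, but the size differed by 0.45 between the measured probe sets. Scaled to the poly-A spikes, which moved the median of all genes to -0.21, Itga7 was past 2-fold (-1.18), as were 2.61% of all genes downward.

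Itga6, which pairs with Itgb1 or Itgb4 to bind laminin, stood at 731 and 891 (-0.29). Its other measured probe sets were at -0.25 and -0.45, so all 3 were lower by less than 2 SD. A further probe set was under the floor in both arrays.

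Itga5, the chain of the classical fibronectin receptor, was nearly level at 189 and 195 (-0.04). Itgav, the chain shared by the vitronectin receptors, was at 277 and 288 (-0.05), with its other probe sets at -0.13 and -0.03. These values lie well inside the disagreement between probe sets.

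The remaining alpha chains were dim. Itga1, a collagen and laminin receptor chain, was at 42.5 in the vector clone and at 17.9, under the floor, in the Ndrg-1 clone. Its log2 ratio was -0.45 or lower (at least 1.37-fold lower). Itga8, Itga9 and Itga11 were under the floor on every probe set, with signals from 2.07 to 22.0 in the Ndrg-1 clone and from 5.32 to 14.4 in the vector clone.

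Among beta chains, Itgb1, Itgb5 and Itgb7 were above the floor in both arrays. Itgb1, the common partner of most alpha chains, stood at 2149 and 2380 (-0.15), and at 1524 and 1553 on its second probe set (-0.03). With the trend on signal removed the ratio of its first probe set was 0.03, so its direction is not settled.

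Itgb5, which pairs with Itgav in a vitronectin receptor, had signals of 720 in the Ndrg-1 clone and 998 in the vector clone. The Ndrg-1 clone was 1.39-fold lower (-0.47), at the edge of 2 SD (0.46). It was inside 2 SD under quantile normalization and with the trend on signal removed (-0.45 in each), and with the median over its probe sets (-0.35). Its second probe set was at -0.35, and a further one, with the vector clone at the floor, was near the floor in both arrays (31.2 and 28.1).

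Itgb7, known as the partner of Itga4 and Itgae in lymphocyte homing, was above the floor in both arrays at 845 and 844, a log2 ratio of 0.0010. Itga4 was not analysed here. Itgae, its other partner, was at 80.7 and 63.7 (0.34) and was the 1 gene above the floor among 7 further integrin chains represented. The others of these 7, among them the leukocyte chains Itgal, Itgam and Itgax, lay under the floor in both arrays, as did Ptprc, the pan-leukocyte marker, at 2.72 and 3.26. Of 13 leukocyte markers represented, 4 exceeded the floor in 1 array or both. These were Cd68 (206 and 114), Cd14 (210 and 309), Fcer1g (45.8 and 34.4) and Csf1r (15.7, under the floor, and 33.4). The summed signal of the 13 was 554 and 562, most of it from Cd68 and Cd14. Each array was made from 1 clone of a cell line. The source of the Itgb7 signal was not tested, and its single probe set gives no check of its specificity.

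Itgb3 and Itgb4 were near the floor. Itgb3, which with Itgav forms the other vitronectin receptor, was at 38.7 in the Ndrg-1 clone and 15.9 as deposited, under the floor, in the vector clone, a log2 ratio of 0.32 or more. Itgb4, the hemidesmosome chain that pairs with Itga6, was at 14.9, under the floor, and 46.6, a log2 ratio of -0.59 or lower. They went opposite ways, each read from 1 probe set. Itgb2, the leukocyte beta chain, and Itgb6, an epithelial partner of Itgav, were under the floor in both arrays, at 26.7 and 17.3 and at 6.001 and 0.593.

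**Figure D2:**
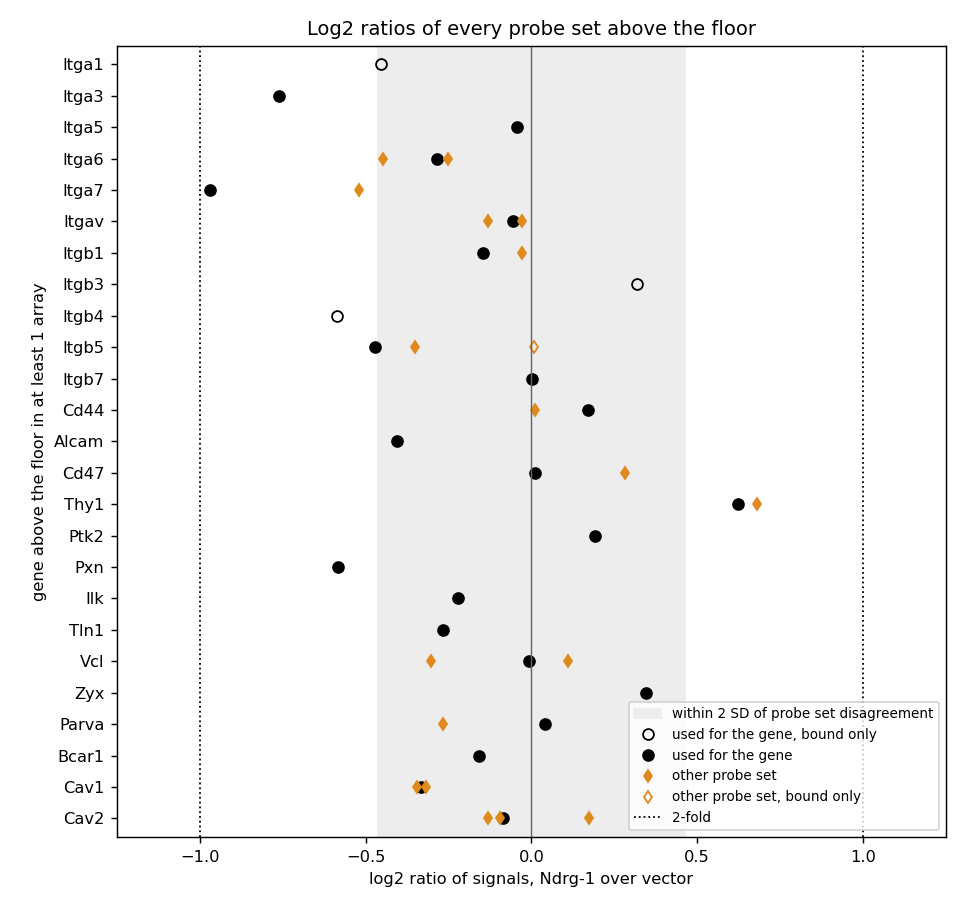
Log2 ratio of signals (Ndrg-1 over vector) of each probe set above the floor, by gene, with the probe set used as a black circle, other probe sets as diamonds and bounds as open symbols. No probe set of these genes passes the dotted 2-fold lines, and 5 of the genes with a filled black circle lie outside the grey band of 2 SD of probe set disagreement.

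Pairs were read from the chains. Of 17 known alpha and beta pairs among the listed genes, 13 had both chains represented. Both chains were above the floor for 7 pairs in the Ndrg-1 clone and 8 in the vector clone. In both arrays these were Itgb1 with Itga3, Itga5, Itga6, Itga7 or Itgav, and Itgav with Itgb5. Itgav with Itgb3 was added in the Ndrg-1 clone alone, and Itga1 with Itgb1 and Itga6 with Itgb4 in the vector clone alone. Each of those 3 rests on a chain near the floor: at a floor set to the 25th percentile of signals (7.66) all 3 were present in both arrays, with 10 pairs in the Ndrg-1 clone and 11 in the vector clone. At the 75th percentile (172) the same 5 pairs stood in each array: Itgb1 with Itga3, Itga5, Itga6 or Itgav, and Itgav with Itgb5. The transcripts of these cells thus cover receptors for laminin, fibronectin and vitronectin, and the arrays do not measure whether the chains meet at the cell surface.

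**Figure D3:**
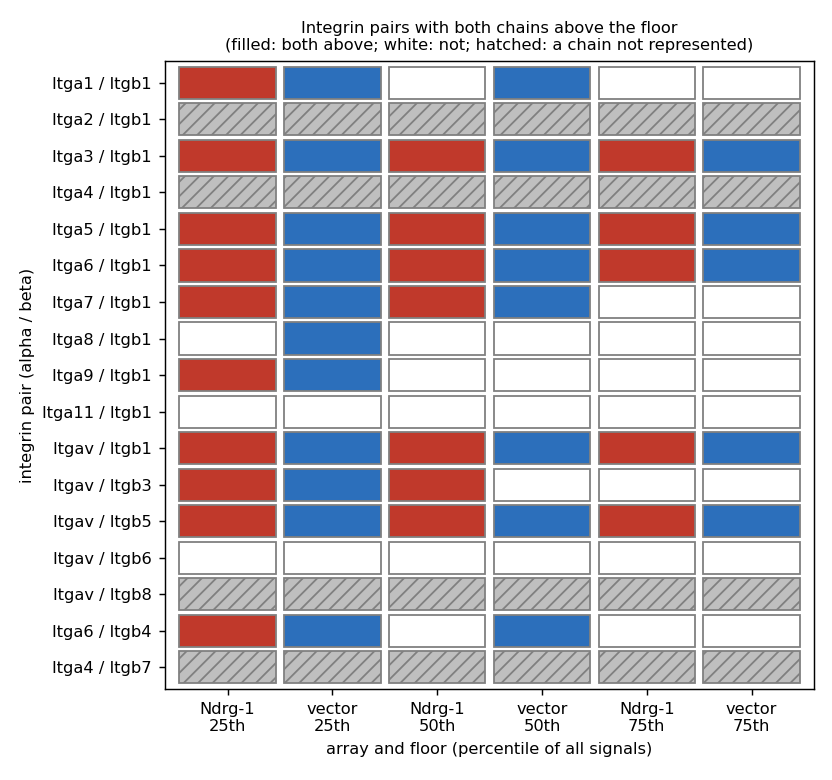
Integrin pairs (rows) whose 2 chains both exceeded the floor, for each array at floors set at the 25th, 50th and 75th percentile of all signals (columns). Filled cells mark pairs present, white cells pairs not present, and hatched cells pairs with a chain that is not represented; 5 pairs are filled in all columns.

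The promoters of Itga3 and Itgb5 are shown because these are the chains of laminin and vitronectin receptors that differed by more than 2 SD, Itgb5 as processed here but not in several alternatives, and had an entry among the RefSeq promoters, as 25 of the 36 genes did. Each run gives the 250 bases before the annotated start in the rat assembly GRCr8, 5′ to 3′ along the gene's strand, with each CG pair in capitals. Itga3 lies on the minus strand, with its window at chr10:80518902-80519151, and Itgb5 on the minus strand, with its window at chr11:80449374-80449623.
Itga3: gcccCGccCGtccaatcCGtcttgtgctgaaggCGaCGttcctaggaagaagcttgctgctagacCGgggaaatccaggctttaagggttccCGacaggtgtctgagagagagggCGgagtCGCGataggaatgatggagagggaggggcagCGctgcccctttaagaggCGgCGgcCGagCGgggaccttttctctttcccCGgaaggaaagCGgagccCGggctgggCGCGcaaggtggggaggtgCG
Itgb5: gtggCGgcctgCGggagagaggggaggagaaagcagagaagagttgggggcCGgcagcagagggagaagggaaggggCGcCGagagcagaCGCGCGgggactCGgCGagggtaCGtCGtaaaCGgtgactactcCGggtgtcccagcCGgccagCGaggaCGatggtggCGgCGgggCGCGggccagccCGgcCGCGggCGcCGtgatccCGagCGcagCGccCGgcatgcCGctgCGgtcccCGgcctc
The Itga3 window held 21 CG pairs and the Itgb5 window 33, more than 84.9% and 96.4% of the 33469 promoter windows of that length, whose median was 5. Both strands were searched for the GC box GGGCGG, the TATA box TATAAA and the E-box CANNTG. The Itga3 window had 2 GC boxes and 1 E-box and no TATA box, and the Itgb5 window had none of these motifs. Of all windows, 30.5% held a GC box, 12.9% a TATA box and 65.5% an E-box. These are descriptions of sequence, and the arrays do not measure promoter activity.

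The other adhesion receptors split into 4 above the floor in both arrays and 3 under it in both. Thy1, a GPI-anchored glycoprotein of neurons, fibroblasts and T cells that binds integrins, had signals of 2141 in the Ndrg-1 clone and 1389 in the vector clone. The Ndrg-1 clone was 1.54-fold higher (0.62), and the second probe set, at 1533 and 957, was 1.60-fold higher (0.68). Both probe sets exceeded 2 SD in the same direction, and Thy1 stayed above 0 in all 10 alternative settings (0.41 to 1.17). The highest of these came with scaling to the hybridisation spikes, under which 7.88% of all genes passed 2-fold upward.

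Cd44, the hyaluronan receptor, was at 910 and 808 (0.17), and its second probe set at 0.01. Cd47, the thrombospondin receptor that also signals to phagocytes through SIRPA, was at 827 and 821 (0.0096), with a second probe set at 0.28. Both genes were nearly level on the probe set with the smaller ratio, and neither exceeded 2 SD. Alcam, an immunoglobulin-type receptor that binds itself and CD6, was lower at 396 against 524 (-0.40), also inside 2 SD.

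Ncam1 and L1cam, adhesion molecules of neurons, and Mcam, an adhesion molecule of endothelium and melanoma, were under the floor in both arrays. Ncam1 had signals of 29.6 in the Ndrg-1 clone and 4.92 in the vector clone on its first probe set and 29.5 and 2.29 on its second, while the other ran the opposite way at 4.14 and 9.58. If the floor is set at the 25th percentile, the first is at least 3.86-fold higher. At that floor 2 of the 31 adhesion genes measured passed 2-fold upward, Ncam1 and Itgb3, and 2 downward, Itga1 and Itgb4. Among all genes at that floor, the shares were 3.62% upward and 3.77% downward. All 4 adhesion genes had signals under 50 in both arrays.

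Focal adhesion genes were above the floor in both arrays without exception, 8 of 8. Pxn, the paxillin scaffold that recruits kinases and adaptors, was lower at 1000.2 against 1497, a log2 ratio of -0.58, on its single probe set. Tln1, the talin that activates integrins, was at 436 and 524 (-0.27), and Ilk, the integrin-linked pseudokinase, at 1150.3 and 1341 (-0.22). Of these 3, Pxn alone exceeded 2 SD.

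Zyx, the zyxin that marks mature adhesions and stress fibres, was higher at 1302 against 1025 (0.35), inside 2 SD. Ptk2, the focal adhesion kinase, was at 341 and 298 (0.19), and Bcar1, the p130Cas scaffold phosphorylated with it, at 221 and 247 (-0.16). Neither reached 1 SD of probe set disagreement.

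Vcl, the vinculin that reinforces the link of talin to actin, was level on its first probe set at 1471 and 1479 (-0.0077), with its others at 0.11 and -0.30. Parva, the alpha-parvin partner of ILK, was at 1237 and 1201 (0.04), with a second probe set at -0.27. The probe sets of both genes disagreed in sign, as did those of Cav2. Of the 12 adhesion genes with more than 1 probe set above the floor in both arrays, 9 had 1 sign throughout.

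The caveolins form the coat of caveolae, membrane pits that link to integrin signalling. Cav1 stood at 3213 and 4048 (-0.33), and its other probe sets were at -0.35 and -0.32. These agree to within 0.03, but with the trend on signal removed the first stood at -0.07 and under quantile normalization at 0.0037, and genes of such high signal were lower in general. Cav2, which needs Cav1 to reach the membrane, was at 2090.4 and 2217 (-0.09), with its other probe sets at -0.13, 0.17 and -0.09.

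**Figure D4:**
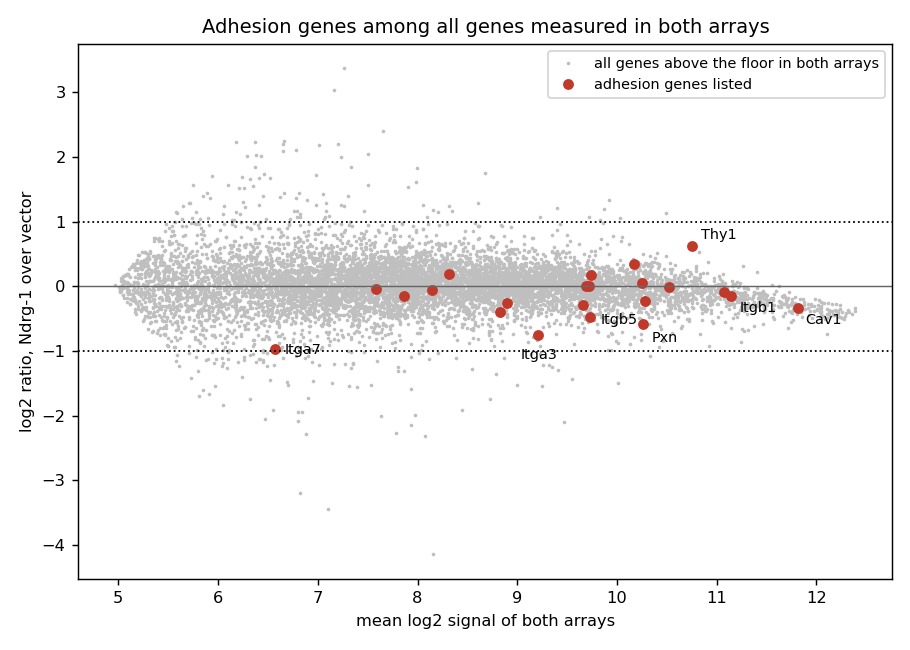
Log2 ratio (Ndrg-1 over vector) against the mean log2 signal of both arrays for all 8552 genes above the floor in both (grey) and for the 22 adhesion genes among them (red). All 22 lie between the dotted 2-fold lines, and the grey cloud bends below 0 at the highest signals, where Cav1 and Itgb1 lie.

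Some genes around the integrins passed 2-fold. Of 27 integrin ligand genes measured, 3 passed 2-fold upward and 2 downward, beside 1.62% and 1.5% of all genes. Of the 27, 20 were below 0 (median -0.41), beside 4557 of all 9182 genes measured. The counts at 2-fold moved with the setting, to 2 and 5 when scaled to the poly-A spikes and to 1 and 1 with the floor at the 75th percentile. The basement membrane collagen chains Col4a1 (463 and 87.1, 5.31-fold) and Col4a2 (161 and 48.4, 3.32-fold) and the fibrillar chain Col1a1 (167 and 77.1, 2.16-fold) were higher. A second Col1a1 probe set, at 56.4 and 31.1, was short of 2-fold (0.86), while that of Col4a1 was past it (2.76). The fibrillar chain Col3a1 was 2.93-fold lower at 356 and 1042, and Tgfbi, a matrix protein that binds integrins, was at least 2.43-fold lower with the Ndrg-1 clone at the floor.

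The laminin chains, ligands of Itga3, Itga6 and Itga7, were looked at after their values were seen. Of the 7 measured, 6 were below 0 and 1 above (median -0.58), beside 4557 of all 9182 genes measured below 0. Among those below 0, Lamb3 has only a bound, at 25.2, under the floor, and 34.4 (-0.15 or lower). Scaled to the hybridisation spikes, which shift all genes alike, 4 of the 6 then measured were below 0 and 2 above. Lamb2, at 435 and 829, had the lowest ratio (-0.93), Lama3 was at -0.80, Lama5 at -0.58 and Lamc1 at -0.48. Lamb1, at 798 and 592, was the one above 0 (0.43). Fn1, the fibronectin bound by Itga5, was at 2240.3 and 2556 (-0.19), and Spp1, the osteopontin bound by Itgav pairs, at 3426 and 5701 (-0.73). Genes of such high signal were lower in general (median -0.15 in the brightest 10%).

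Among actin linkers of focal adhesions, 1 of 21 passed 2-fold upward and 2 downward (median 0.15), beside 1.62% and 1.5% of all genes. These counts were 3 and 2 when scaled to the hybridisation spikes and 1 and 3 when scaled to the poly-A spikes. With the floor at the 75th percentile they were 0 and 2. Sorbs2, an adaptor of the vinculin-binding vinexin family, was 4.57-fold higher at 276 and 60.4. Flnc, the muscle filamin that crosslinks actin, was 10.9-fold lower at 41.5 and 453, with a second probe set at -1.38. Synpo2, an actin-bundling protein of the Z-disc, was 3.35-fold lower at 232 and 777, with further probe sets at -1.97 and, with the Ndrg-1 clone at the floor, -0.08 or lower.

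The lists for integrin activation and adaptors and for kinases and scaffolds held 0 genes at 2-fold, although 3 kinase and scaffold genes passed it upward when scaled to the hybridisation spikes. Activation and adaptor genes (17 measured, median -0.08) had their largest differences at Dab2, an endocytic adaptor, with -0.72 (764 and 1260), and Krit1, a binding partner of an integrin beta1 regulator, with 0.45 (498 and 364, second probe set -0.16). Kinase and scaffold genes (25 measured, median 0.07) were led by Lpxn, a paxillin relative, with 0.99 (226 and 114), and Dock1, a Rac activator downstream of Bcar1, with 0.96 (210 and 108). Both came close to 2-fold, in the direction opposite to Pxn.

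Membrane partners of integrins also held 0 genes at 2-fold among 17 measured. Of the 17, 12 were below 0 and 5 above (median -0.37), beside 4557 of all 9182 genes measured below 0. Among the 12 were very bright genes, such as Cd63 (3964 and 5408, -0.45) and Lgals3 (3325 and 4550, -0.45). Genes of such high signal were lower in general. The tetraspanin Cd9 was at 983 and 627 (0.65), and the proteoglycan Cspg4 at 90.8 and 146 (-0.68). Of 14 other adhesion receptors measured, 1 reached 2-fold upward and 0 downward, beside 1.62% and 1.5% of all genes. Jam3, a junctional adhesion molecule, was at 87.5 against 3.82, at least 2.82-fold higher with the vector clone at the floor. Cadherin and catenin genes held 0 of 5 at 2-fold, with Ctnnd1 at 0.40 and Ctnna1 at -0.20. Caveola genes held 0 of 6, with Cavin2 at -0.82 (121 and 214) and Cavin3 at -0.38.

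**Figure D5:**
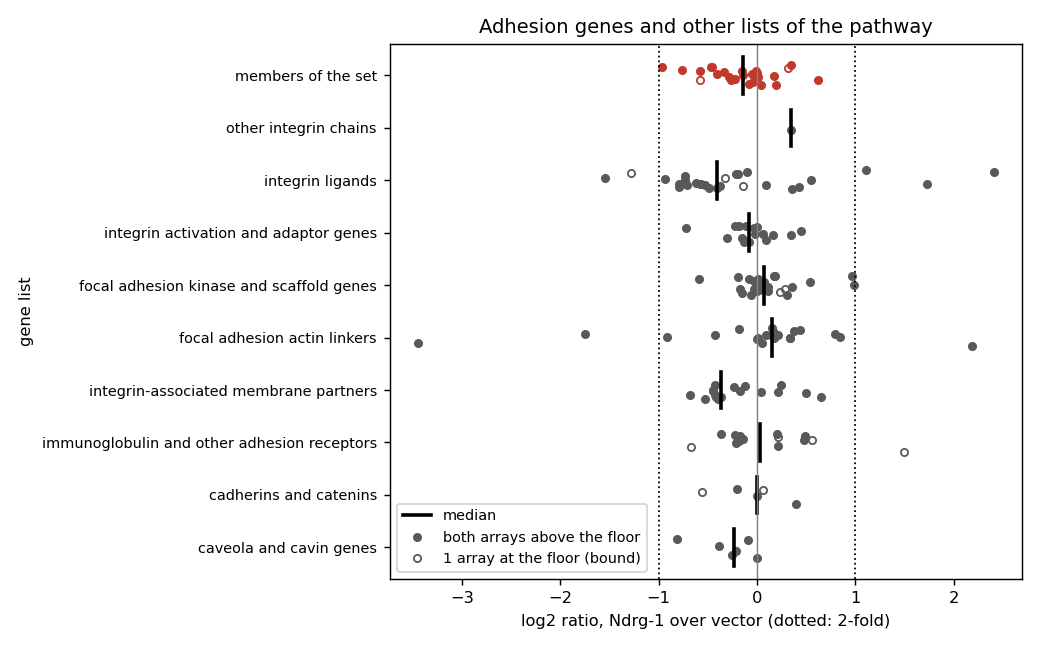
Log2 ratio (Ndrg-1 over vector) of every measured gene in the adhesion set (red) and in 9 further lists of the pathway (grey), with medians as black bars, bounds as open circles and 2-fold as dotted lines. The adhesion set spans -0.97 to 0.62, while integrin ligands and actin linkers pass 2-fold in both directions.

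Markers of other cell types were mostly under the floor, with 3 of 9 endothelial, 7 of 13 fibroblast and smooth muscle and 4 of 11 neural markers above it in 1 array or both. Their summed signals in the Ndrg-1 and vector clones were 308 and 194 for endothelial, 7389 and 9343 for fibroblast and smooth muscle, and 998 and 1327 for neural markers. Single genes carried much of these sums. Vim, a mesenchymal filament gene, was at 4344 and 5818. Among neural markers, Eno2 had the highest signals, at 734 and 640 (log2 ratio 0.20). Map2, a neuronal microtubule gene, went the opposite way, at 126 and 505. Eng, an endothelial receptor, was at 91.4 and, under the floor, 28.8, a log2 ratio of 1.56 or more. Thy1, Cav1 and Itga1 are also expressed in such cell types, but each array was made from 1 clone of a cell line. How these markers relate to the ratios of the 3 genes was not tested. In bulk RNA, fewer cells expressing a gene and less of its RNA per cell cannot be told apart. For RNA quality, the beta-actin control probe sets gave ratios of 3′ over 5′ signal of 1.21 for the Ndrg-1 clone and 1.24 for the vector clone.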

How the data were processed

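The deposited values are 1 intensity per probe set and array, which the authors made in GCOS 1.3 (source: the submitters' processing notes). The method of probe summary and scaling is not stated, and detection calls were not given, in the sources used here. The table holds 31099 probe sets, 57 of them controls, and the mean without the lowest and highest 2% was 150.0 in both arrays. The number of arrays limits the precision.

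Of the probe sets, 20826 carried 1 gene in the platform annotation, and 20758 of these matched RefSeq (GRCr8) by gene ID. Genes, lists and settings were chosen with earlier results of these data known. Named genes were all listed genes with their probe sets, Ndrg1, up to 4 genes per direction and list at 2-fold, and up to 2 genes of a list with none. Marker lists are named where marker counts are given. The procedure was tested on simulated data. Alternatives were other scalings (none, quantile, lowess trend removed with fraction 0.3, hybridisation spikes, poly-A spikes), a floor at the 25th or the 75th percentile, no floor with a pseudocount of 16, the median over probe sets, leaving out _x_at, _s_at and _a_at probe sets, and 1.5-fold. No test was run, since each group has 1 array. Computations ran in Python 3.11.15 with statsmodels 0.14.6, numpy 2.4.6, pandas 2.3.3 and matplotlib 3.10.9.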

Additional observations from a re-analysis of the deposited data

How the results depend on the processing

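The counts of 0 genes at 2-fold in each direction held under no rescaling, quantile normalization, removal of the lowess trend, the floor at the 75th percentile, the median over probe sets and without _x_at, _s_at and _a_at probe sets. Scaled to the hybridisation spikes, 1 gene was higher (Thy1, beside 7.88% of all genes), the adhesion median was 0.39 and Ndrg1 was at 0.89. Scaled to the poly-A spikes, 1 gene was lower (Itga7, beside 2.61% of all genes). These scalings moved the median of all genes to 0.53 and -0.21. With the floor at the 25th percentile 2 genes were higher and 2 lower, with a pseudocount of 16 and no floor 1 was higher (Ncam1) and 1 lower (Itgb4), beside 1.21% and 1.05% of all genes, and at 1.5-fold 1 was higher and 3 lower. The floor at the 75th percentile left 5 pairs in the vector array, since fewer chains exceed it. The median over its probe sets put Ndrg1 at a log2 ratio of 0.052. Of the 25 measured genes, 19 kept their sign in every alternative that measured them other than the spike scalings, and Itgb1, Ptk2, Vcl, Parva, Cav1 and Cav2 did not. With the spike scalings, which shift all genes alike, 8 did. Scaling to the hybridisation spikes moved all 25 by more than the probe set SD, and under the poly-A spikes 0 moved by as much. For Itga7 the ratio ranged from -1.18 to -0.43, with -0.52 for the median over its probe sets, and both measured probe sets are lost when _a_at probe sets are left out. Of 180 counts for the pathway lists under the alternatives, 15 moved, that is by over 1.5 times or between 0 and another count. Among them were membrane partners, with 2 higher under the hybridisation spikes, and caveola genes, with 1 lower under the poly-A spikes. Low signals limit Itga1, Itgb3, Itgb4 and Ncam1, whose ratios rest on values near or under the floor. No paired analysis was possible because each group has 1 array.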

Other observations

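The zyxin family of LIM-domain proteins, which shuttle between focal adhesions and the nucleus, was examined after its values were seen. All 5 members measured had log2 ratios above 0 (Zyx 0.35, Trip6 0.85, Ajuba 0.37, Lpp 0.34 and Limd1 0.15), as did 4625 of all 9182 genes measured. Of the 5, Trip6 alone exceeded 2 SD of probe set disagreement (0.46). All 5 stayed above 0 with the trend on signal removed (0.12 to 0.81). Scaled to the poly-A spikes, which shift all genes alike, 4 were above 0 and 1 below. Trip6 signals were 339 for the Ndrg-1 clone and 189 for the vector clone. The related focal adhesion LIM protein Tes was at 857 and 495 (0.79). None of these reached 2-fold.

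The paxillin family, also examined after its values were seen, was split. Pxn was at -0.58 and Tgfb1i1, which encodes Hic-5, at 396 and 448 (-0.18), while Lpxn was at 0.99. The 3 chains of collagen VI, a matrix protein that binds integrins, were all below 0, with Col6a1 at 2137 and 3287 (-0.62), Col6a2 at 1416 and 2358 (-0.74) and Col6a3 at 1654 and 2393 (-0.53). Genes of such high signal were lower in general. With the trend on signal removed the 3 ratios ran from -0.60 to -0.38, and their median of -0.41 was inside 2 SD (0.46). Under quantile normalization the median was -0.42.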
